A study of Mus musculus with 8 samples.

Results

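The 46 genes described here encode the scaffold of the excitatory postsynapse and the adhesion molecules that hold a synapse together. They were taken by gene symbol from a list of postsynaptic scaffold and adhesion genes, and all 46 were found among the 24527 rows of the count table. RNA was sequenced from the hippocampus of 8 wild-type male C57BL/6J mice at 20 weeks of age. In the BPA group (n = 4), the dams' feed, low in phytoestrogens, held 50 mg of BPA (bisphenol A) per kg throughout gestation and lactation, and in the Control group (n = 4) the same feed held 0 mg of BPA per kg. Mice of both groups ate the control diet after weaning on postnatal day 21, so the comparison asks which transcripts differ in adults long after the exposure ended. BPA is a monomer of plastics that can bind estrogen receptors. Each library comes from dissected bulk tissue, in which fewer cells of a type and less RNA per cell cannot be told apart. The exposure was given through the mother, and no source used here states how the mice of a group were spread over litters. The p-values therefore cover differences among these 8 mice alone.

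Below the membrane of an excitatory synapse lies a dense protein lattice. Membrane-associated guanylate kinases (the Dlg genes) anchor glutamate receptors and adhesion molecules through PDZ domains, SAPAP proteins (Dlgap) link them to the Shank proteins, and Shanks are cross-linked by Homer proteins. The calcium and calmodulin dependent kinase CaMKII, one of the most abundant proteins of this lattice, is needed for long-term potentiation in the hippocampus. Across the cleft, neuroligins, LRRTM and netrin-G ligand proteins bind presynaptic partners such as neurexins and receptor phosphatases.

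All 46 members passed the filter on low counts, with 452 to 237031 reads per member and library. Library totals were 43119986 to 54013884 counts in BPA mice and 27135071 to 40793192 counts in Control mice, so every BPA library was deeper than every Control library and depth and exposure cannot be told apart by group. The members together took 1.92 ± 0.0685% of all counts in BPA mice and 1.89 ± 0.0683% in Control mice (SD, n = 4 each). Levels are given as CPM, the usual per-library scaling of read counts, adjusted by the trimmed mean of M values (TMM). Neuronal markers were present in every library: 7 genes of excitatory neurons and neurons in general, of which 0 had a fold change above 1, summed to 7035 to 7301 CPM in BPA libraries and 6987 to 8283 CPM in Control libraries. Control replicate 2 stood apart by its choroid plexus markers, whose 8 genes summed to 166 to 815 CPM in the BPA libraries, 3061 CPM in that library and 209 to 305 CPM in the other Control libraries. Control replicates 1 and 4 had the lowest sums of dentate granule cell markers. Values without these libraries are given beside several members that moved with them.

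Expression spanned a wide range within this set of genes. Nrgn, which encodes neurogranin, a small protein that binds calmodulin in dendrites, was the most abundant per length of exon, at 833 ± 34.9 CPM per kb in BPA mice and 782 ± 102 CPM per kb in Control mice (SD, n = 4 each). Camk2a, the alpha subunit of CaMKII, followed at 573 ± 19.0 CPM per kb in BPA mice and 561 ± 39.4 CPM per kb in Control mice. Next came Ppp1r9b, which encodes spinophilin, a protein that tethers protein phosphatase to spine actin, at 217 ± 13.7 CPM per kb in BPA mice and 216 ± 16.4 CPM per kb in Control mice. At the low end were Ephb2, a receptor for ephrin-B ligands (2.58 ± 0.136 CPM per kb in BPA mice and 2.51 ± 0.263 in Control mice), and Camk2d, the delta subunit (1.78 ± 0.213 CPM per kb in BPA mice and 1.89 ± 0.488 in Control mice). The lengths are those of all annotated exons merged, so genes with many alternative exons, such as Kalrn and Camk2d, have understated levels per kb.

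**Figure D1:**
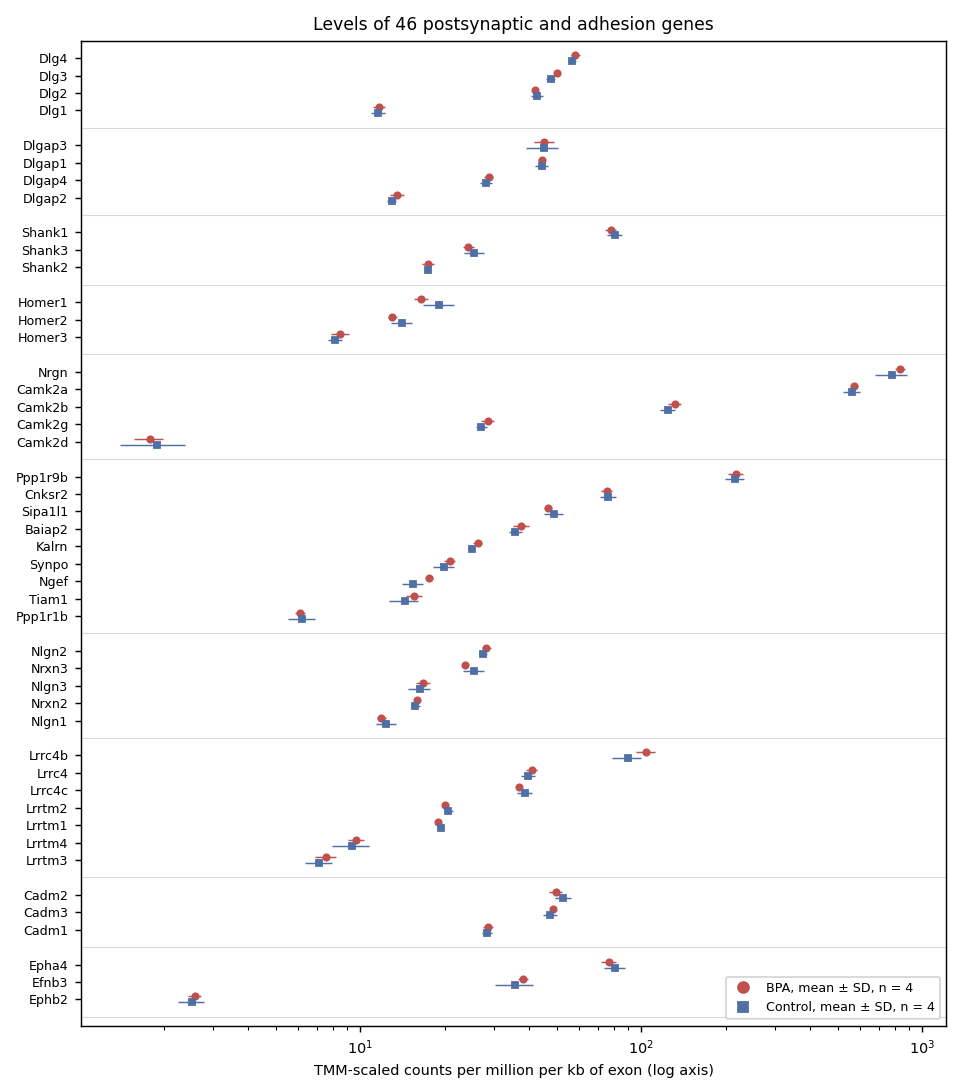
Mean level of each of the 46 members, by role, as TMM-scaled CPM per kb of merged exon on a log axis; red circles are BPA mice and blue squares Control mice, with bars of 1 SD (n = 4 each). Levels run from 1.78 CPM per kb for Camk2d to 833 CPM per kb for Nrgn in BPA mice, and the groups lie close together for every member.

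No member passed the test of BPA against Control mice. With edgeR's quasi-likelihood test and Benjamini-Hochberg adjustment over the 15434 genes tested, 0 of the 46 were called (smallest adjusted p 0.955), and 0 of all tested genes were called (0%). DESeq2 and limma-voom also called 0 of the 46. At an unadjusted p under 0.05 there were 3 members (6.52%), against 4.52% of all tested genes. Ngef and Lrrc4b had the higher values in BPA mice, as had 2.22% of all tested genes at that p, and Homer1 the lower, as had 2.3%. Leaving out 1 library changed the count at an unadjusted p under 0.05 most for Control replicate 2. Without it, 8 members (17.4%) were below that p, 2 higher and 6 lower in BPA mice, against 4.36% of all tested genes, and none passed after adjustment (smallest edgeR adjusted p 0.938). Without Control replicate 3 there were 7 (15.2%), 5 higher and 2 lower, against 7.52% of all tested genes.

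In the fit on group alone, the 95% interval excluded a change of more than 1.2-fold either way for 40 of the 46 members. For all 46 it excluded a change of more than 1.5-fold. Over all tested genes this held for 58.7% at 1.2-fold and 85.4% at 1.5-fold. The 6 members with wider intervals were Homer1, Lrrc4b, Ngef, Tiam1, Efnb3 and Camk2d. These intervals do not allow for the difference in depth between the groups. With library total as a covariate, the log2 fold change of Nrgn went from 0.092 to 0.23. That of Lrrtm4 went from 0.055 to 0.24 and that of Camk2d from -0.093 to -0.36, while Homer1 and Ngef shrank to -0.068 and 0.045. With counts thinned to the total of the smallest library, Homer1 stayed at -0.21. In that fit 3 members, again Ngef, Lrrc4b and Homer1, had an unadjusted edgeR p under 0.05, against 4.7% of all tested genes.

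**Figure D2:**
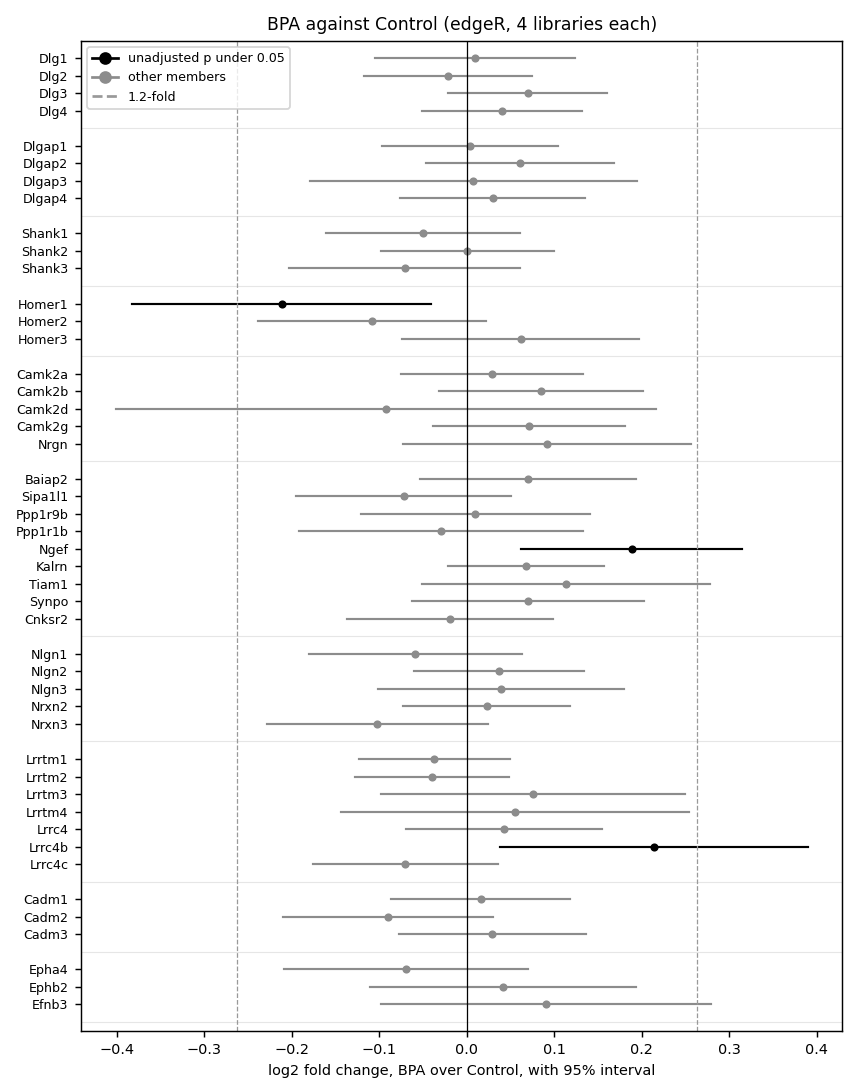
Fitted log2 fold change of BPA over Control for each member, by role, with its 95% interval (edgeR, 4 libraries each); black marks an unadjusted p under 0.05 and dashed lines 1.2-fold. Estimates run from -0.21 for Homer1 to 0.21 for Lrrc4b, and no member was called after adjustment over all tested genes.

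The fitted log2 fold change was above 0 for 30 members and below 0 for 16, with a median of 0.026. Over all tested genes it was above 0 for 50.0%, with a median of 4.9e-05. The excess of members above 0 was absent without Control replicate 2, the library with the high choroid plexus sum. Without it, 23 members were above 0 and 23 below, and the median was -0.0012. Of the members that changed sign without it, Dlgap1, Dlgap3, Dlgap4, Shank2, Camk2a, Ppp1r9b, Nrxn2 and Cadm3 were then below 0 and Ppp1r1b above. The excess was smaller without BPA replicate 2, with 26 members above 0, 20 below and a median of 0.013. It was also smaller once each library was corrected for the GC content of its genes, with 27 members above 0 and a median of 0.0090.

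The membrane-associated guanylate kinases were close to even between groups. Dlg4, the most abundant of the 4 per length and the best known scaffold of the excitatory postsynapse, was at 794, 791, 734 and 775 CPM in the BPA libraries, against 739, 729.6, 776 and 764 CPM in the Control libraries. The groups overlapped, and the log2 fold change was 0.040 ± 0.042 (SE here and below). Dlg3, an X-linked member of the family that is abundant early in development, had 294, 292, 292 and 291 CPM in BPA mice, against 270.0, 271, 289.6 and 283 CPM in Control mice. It was the only member whose groups did not overlap (2.17% of members), against 2.79% of all tested genes, of which 1.37% were higher in BPA mice and 1.43% lower. The log2 fold change was 0.069 ± 0.042 (edgeR adjusted p 0.955). The spread of Dlg3 in BPA mice was 0.345% of its mean, less than the 0.860% that counting error alone gives at its depth. Dlg2 gave a log2 fold change of -0.021 ± 0.044 and Dlg1, which also serves receptor traffic outside the synapse, 0.0097 ± 0.053.

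The SAPAP genes, which bridge these kinases to Shank proteins, had estimates near 0. The sign depended on the libraries and the scaling for Dlgap1 and Dlgap3, and on the libraries for Dlgap4. Dlgap2 stayed above 0 in every setting, lowest at 0.020 without BPA replicate 2. Dlgap3 and Dlgap1 were about equally abundant per length. Dlgap3 stood at 219.9, 217, 191 and 189 CPM in BPA mice, against 202, 171, 236 and 204 CPM in Control mice, where Control replicate 2 was lowest and Control replicate 3 highest of all 8 libraries. Log2 fold changes were 0.0075 ± 0.086 for Dlgap3, 0.0036 ± 0.046 for Dlgap1, 0.061 ± 0.050 for Dlgap2 and 0.029 ± 0.049 for Dlgap4. Without Control replicate 2, Dlgap3 was at -0.067, Dlgap1 at -0.016 and Dlgap4 at -0.0036. With the GC correction Dlgap3 and Dlgap1 were also below 0, at -0.0069 and -0.0096.

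The Shank genes encode the large organizers at the base of the lattice, which bind both SAPAPs and Homers. Shank1 was the most abundant per length, at 812, 872, 797 and 797 CPM in BPA mice and 869, 774, 888 and 862 CPM in Control mice. The ranges overlapped, with BPA replicate 2 above and Control replicate 2 below the rest of their groups. Log2 fold changes were -0.050 ± 0.051 for Shank1, -0.071 ± 0.061 for Shank3 and 0.00057 ± 0.046 for Shank2. Without Control replicate 2, Shank3 was at -0.13 with an unadjusted p of 0.0212, which did not pass after adjustment. Without Control replicate 3 it was at -0.043. Shares within the family were close between groups: Shank1 made up 65.1 ± 0.728% of Shank CPM per kb in BPA mice and 65.3 ± 0.126% in Control mice.

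Among the Homer genes, Homer1 had the lowest estimate of all 46 members. It was at 197, 206, 181 and 206 CPM in BPA mice, against 222, 198, 227 and 268 CPM in Control mice. Control replicate 4 was highest of all libraries, and Control replicate 2 lay within the BPA range. The log2 fold change was -0.21 ± 0.079, which is 0.863-fold (95% interval 0.767 to 0.972, edgeR unadjusted p 0.0191, adjusted p 0.955). It was -0.27 without Control replicate 2 (unadjusted p 0.00174), -0.13 without Control replicate 4 and -0.068 with library total as a covariate. With counts thinned to the total of the smallest library it was again -0.21. Homer1 (chr13:93299635-93405129, plus strand, mm10) yields long forms that link Shanks to metabotropic glutamate receptors and a short form, induced by neuronal activity, that uncouples them. The table holds 1 count per gene, so these forms cannot be separated here. Homer2 was at 158, 164, 172 and 163 CPM in BPA mice, against 179, 158, 177 and 196 CPM in Control mice (-0.11 ± 0.060). As for Homer1, Control replicate 4 was highest, and Control replicate 2 was the lowest library. The Homer2 estimate was -0.16 without Control replicate 2 (unadjusted p 0.0094), -0.059 without Control replicate 4 and -0.0063 with library total as a covariate. Homer3 was at 29.3 ± 2.12 CPM in BPA mice and 28.1 ± 1.64 CPM in Control mice (0.062 ± 0.063), and its exons overlap those of Ddx49 on the opposite strand over 874 bases.

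The 250 bases before the RefSeq start of the 3 members with an unadjusted p under 0.05 are shown because these genes came nearest to a difference (RefSeq, GRCm38.p6, each 5′ to 3′ on the gene's strand). Capitals mark TGACG, the core of the cAMP response element, searched on both strands (TGACG and CGTCA), and AGGTCA, the core bound by several nuclear receptors, searched with its complement TGACCT. RefSeq and GENCODE differ on where these genes start: the RefSeq start lies 4122 bases inside the GENCODE gene for Homer1 and 13469 bases inside it for Lrrc4b, and the starts are the same for Ngef. The Homer1 window (chr13:93303507-93303756) is on the plus strand, the Ngef window (chr1:87573871-87574120) on the minus strand, and the Lrrc4b window (chr7:44442237-44442486) on the plus strand.
Homer1: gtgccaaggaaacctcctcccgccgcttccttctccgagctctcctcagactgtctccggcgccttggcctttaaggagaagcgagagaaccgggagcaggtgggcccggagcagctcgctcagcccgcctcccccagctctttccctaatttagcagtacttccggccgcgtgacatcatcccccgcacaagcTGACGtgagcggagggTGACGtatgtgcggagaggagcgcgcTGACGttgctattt
Ngef: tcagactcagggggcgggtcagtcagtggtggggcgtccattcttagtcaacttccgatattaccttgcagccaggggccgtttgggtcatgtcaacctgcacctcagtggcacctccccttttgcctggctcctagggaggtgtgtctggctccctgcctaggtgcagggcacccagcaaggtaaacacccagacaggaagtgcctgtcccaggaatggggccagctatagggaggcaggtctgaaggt
Lrrc4b: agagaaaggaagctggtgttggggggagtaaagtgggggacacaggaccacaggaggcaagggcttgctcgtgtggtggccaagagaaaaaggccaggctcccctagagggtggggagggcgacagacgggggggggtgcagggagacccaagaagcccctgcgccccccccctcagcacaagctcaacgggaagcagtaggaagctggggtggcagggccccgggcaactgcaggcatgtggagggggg
The Homer1 window held TGACG 3 times, and the windows of Ngef and Lrrc4b held neither motif. A second Homer1 start site, not printed, had AGGTCA 1 time. Of the 46 members, 34 had an upstream window, of which 6 (17.6%) held TGACG, against 19.8% of all 27025 genes with a window. AGGTCA was in the windows of 4 members (11.8%), against 15.8% of all genes. The palindromic estrogen response element, searched on both strands, was in the windows of 0 of the 34 members, against 0.0666% of all genes.

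The CaMKII genes and neurogranin were the most abundant group. Camk2a was at 4332, 4425, 4250.1 and 4090.3 CPM in BPA mice, against 4068, 3837, 4492 and 4359 CPM in Control mice, which span a wider range (0.029 ± 0.048). Camk2b, the actin-binding beta subunit, was at 1192, 1257, 1249 and 1113 CPM in BPA mice, against 1041, 1127, 1163 and 1206 CPM in Control mice (0.085 ± 0.054). The Camk2b estimate was 0.12 without BPA replicate 4 (unadjusted p 0.0456) and 0.046 without Control replicate 1. Camk2g, a subunit linked to signalling from synapse to nucleus, was at 178, 180.3, 195 and 174 CPM in BPA mice and 167, 180.2, 179.5 and 165 CPM in Control mice (0.071 ± 0.051). The groups overlapped for all 3 genes. Nrgn was at 1245, 1259.7, 1152 and 1185 CPM in BPA mice, against 1027, 1012, 1329 and 1175 CPM in Control mice. The Control libraries held both the lowest and the highest Nrgn values of the series, and the log2 fold change was 0.092 ± 0.076. It was 0.18 without Control replicate 3 (unadjusted p 0.0123) and 0.041 without Control replicate 2. Camk2d had the widest interval of the 46 members (fold 0.938, 95% interval 0.757 to 1.16), since Control replicate 1 was at 58.5 CPM and the other Control libraries at 33.7 to 40.3 CPM. Without Control replicate 1 its log2 fold change was 0.11, against -0.093 with all libraries.

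Ngef had the smallest unadjusted p of the genes for spine actin and signalling, and of all members. It encodes ephexin, a guanine nucleotide exchange factor that acts downstream of EphA receptors (chr1:87476834-87573870, minus strand, mm10). It was at 70.5, 69.8, 69.0 and 65.3 CPM in BPA mice, against 66.5, 59.1, 60.9 and 54.2 CPM in Control mice. Only Control replicate 1 lay within the BPA range. The log2 fold change was 0.19 ± 0.058, which is 1.14-fold (95% interval 1.04 to 1.24, edgeR unadjusted p 0.00694, adjusted p 0.955), and it ran from 0.14 to 0.24 when any 1 library was left out. With library total as a covariate it was 0.045. Kalrn and Tiam1 encode exchange factors that activate Rac and enlarge spines. Kalrn was at 603, 656, 643 and 617 CPM in BPA mice, against 601, 598, 597 and 609 CPM in Control mice (0.067 ± 0.041), with BPA replicate 1 inside the Control range. Tiam1 was at 149.5, 154, 171 and 151 CPM in BPA mice, against 132, 162, 157 and 128 CPM in Control mice (0.11 ± 0.076). Control replicates 1 and 4 set the low end for Tiam1, and the other Control libraries lay within the BPA range. Without Control replicate 2 the Tiam1 estimate was 0.17 (unadjusted p 0.0375), and without Control replicate 4 it was 0.059.

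The remaining genes of the spine group had intervals inside 1.2-fold. Ppp1r9b, the most abundant of them per length, was at 1136, 1182, 1079 and 1021 CPM in BPA mice and 1094, 984, 1180.2 and 1131 CPM in Control mice (0.0098 ± 0.060). Log2 fold changes were 0.070 ± 0.057 for Baiap2, an adaptor that bends membranes and binds Rac, and 0.070 ± 0.061 for Synpo, which encodes synaptopodin of the spine apparatus. They were -0.072 ± 0.057 for Sipa1l1, a GTPase-activating protein for Rap in the lattice, and -0.019 ± 0.054 for Cnksr2, a scaffold of Ras signalling. Single libraries moved several of these. Sipa1l1 was at -0.12 without Control replicate 2 (unadjusted p 0.0363) and -0.035 without Control replicate 3. Synpo was at 0.13 without Control replicate 3 (unadjusted p 0.0202) and 0.042 without Control replicate 4. Baiap2 was at 0.12 without BPA replicate 3 (unadjusted p 0.0447) and 0.049 without BPA replicate 1. Ppp1r1b, the dopamine-regulated phosphatase inhibitor that is far more abundant in striatum, was low (17.8 ± 0.743 CPM in BPA mice and 18.2 ± 2.02 CPM in Control mice). Control replicate 2 was at 21.2 CPM for Ppp1r1b and the other Control libraries at 17.1 to 17.2 CPM. Striatal markers summed to 31.9 to 38.8 CPM in BPA libraries and 29.1 to 39.6 CPM in Control libraries. Control replicate 2 had the highest striatal sum. BPA replicate 4 and Control replicate 1, with sums of 38.8 and 39.0 CPM, had 17.1 CPM of Ppp1r1b each. The part of striatal tissue in the Ppp1r1b values was not tested.

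**Figure D3:**
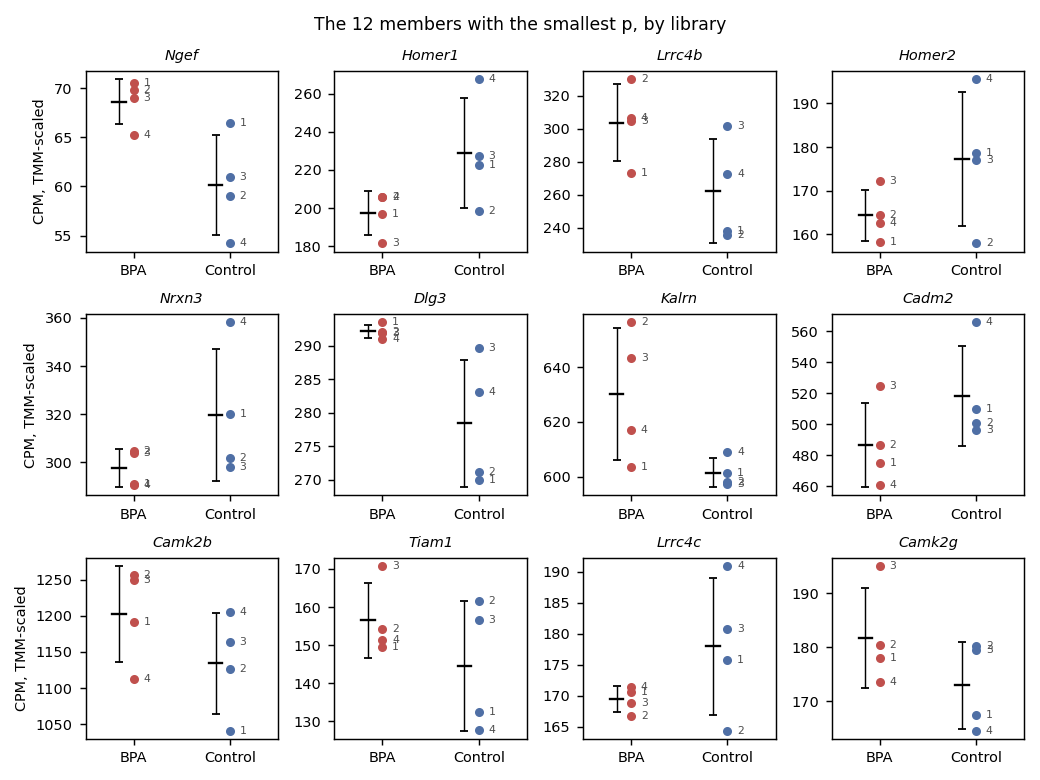
TMM-scaled CPM in each library for the 12 members with the smallest unadjusted p; points are libraries numbered by replicate, and the bar and whiskers to their left the mean and 1 SD (n = 4 each; axes do not start at 0). Only Dlg3 has groups that do not overlap, with 291 to 294 CPM in BPA mice and 270.0 to 289.6 CPM in Control mice.

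Neuroligins sit in the postsynaptic membrane and neurexins across from them. Nlgn2, the neuroligin of inhibitory synapses, was at 167, 165, 164 and 154 CPM in BPA mice and 162, 152, 164 and 155 CPM in Control mice (0.037 ± 0.045). Nrxn3 was at 291, 305, 304 and 291 CPM in BPA mice, against 319.9, 302, 298 and 358 CPM in Control mice. Control replicate 4 was again the highest library, and the Nrxn3 estimate of -0.10 ± 0.058 became -0.044 without it. It was -0.13 without Control replicate 2 (unadjusted p 0.04997) and -0.13 without Control replicate 3 (unadjusted p 0.0465). Nlgn1, the neuroligin of excitatory synapses, gave -0.059 ± 0.056, Nlgn3 0.039 ± 0.065 and Nrxn2 0.023 ± 0.044. The ratio of Nlgn2 to Nlgn1 counts, which does not depend on library scaling, was 1.02 ± 0.0162 in BPA mice and 0.956 ± 0.0902 in Control mice. A two-sided exact permutation test did not pass (p = 0.229, adjusted over 3 ratios 0.557; n = 4 each). The smallest p that 4 against 4 can give is 0.0286.

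Of the leucine-rich repeat adhesion genes, Lrrc4b had the highest estimate of the 46 members. It encodes a ligand of presynaptic receptor phosphatases that binds Dlg4 (chr7:44429018-44463351, plus strand, mm10). It was at 273, 330.4, 304 and 307 CPM in BPA mice, against 238, 236, 302 and 273 CPM in Control mice. BPA replicate 2 was the highest library, and only Control replicate 3 lay within the BPA range. The log2 fold change was 0.21 ± 0.081, which is 1.16-fold (95% interval 1.03 to 1.31, edgeR unadjusted p 0.0214, adjusted p 0.955), and it ran from 0.17 to 0.29 when any 1 library was left out. With library total as a covariate it was 0.31. The related netrin-G ligand Lrrc4c was at 171, 167, 169 and 171 CPM in BPA mice, against 176, 164, 181 and 191 CPM in Control mice (-0.070 ± 0.049). The Lrrc4c estimate was -0.11 without Control replicate 2 (unadjusted p 0.0389) and -0.036 without Control replicate 4. Lrrc4 gave 0.043 ± 0.051. Lrrc4b made up 57.2 ± 1.93% of the CPM per kb of these 3 genes in BPA mice and 53.2 ± 2.08% in Control mice (SD, n = 4 each). The LRRTM genes, neurexin-binding organizers of excitatory synapses, gave -0.037 ± 0.040 for Lrrtm1, -0.040 ± 0.040 for Lrrtm2, 0.076 ± 0.080 for Lrrtm3 and 0.055 ± 0.091 for Lrrtm4. Lrrtm2 exons overlap those of Ctnna1 on the opposite strand over 95 bases.

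SynCAMs are immunoglobulin proteins that span the cleft. Cadm2 was at 475, 487, 524 and 461 CPM in BPA mice, against 509.8, 501, 496 and 566 CPM in Control mice (-0.090 ± 0.055). The estimate was -0.046 without Control replicate 4 and -0.13 without BPA replicate 3 (unadjusted p 0.0421). The groups overlapped, and Cadm1 and Cadm3 gave 0.016 ± 0.047 and 0.029 ± 0.049. Among the Eph receptors and ephrins, which steer axons and later shape spines, Epha4 was the most abundant per length, at 648, 639, 620.4 and 565 CPM in BPA mice, against 599, 601, 703 and 692 CPM in Control mice (-0.069 ± 0.064). Ephb2 gave 0.042 ± 0.070 and Efnb3, a transmembrane ligand of Eph receptors, 0.090 ± 0.087.

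Other genes of the same structures were tested too. A list of 85 partners was tested in the same fit: 0 were called by edgeR, DESeq2 or limma-voom, and 0 had an unadjusted p under 0.05 with edgeR, against 4.52% of all tested genes. Of these, 48 had estimates above 0 and 37 below, with a median of 0.0075. Among 29 partners of the scaffold, Magi2, a PDZ scaffold, was at 189.9 ± 9.23 CPM in BPA mice and 177 ± 5.99 CPM in Control mice (0.099 ± 0.047), with no overlap between groups. Ncam1, an adhesion partner, was the other partner without overlap (2.35% of partners, against 2.79% of all tested genes). Exons of Ncam1 overlap those of Gm11149 on the opposite strand over 417 bases. Magi1 gave 0.097 ± 0.053, Tanc2, a scaffold that binds Dlg4, -0.072 ± 0.046 and Sipa1l2 0.14 ± 0.093. Among 14 partners of spine actin, the smallest p were those of Cttn, which encodes cortactin (0.077 ± 0.047), Rasgrf1 (0.068 ± 0.050), Arhgef7 (0.056 ± 0.042) and Cyfip1, part of the complex that holds the actin nucleator WAVE inactive (-0.050 ± 0.045; its exons overlap those of Nipa2 on the opposite strand). Among 42 adhesion partners, Ptprd, a receptor phosphatase that binds several postsynaptic adhesion proteins, gave -0.10 ± 0.058, Ncam2 0.079 ± 0.045, Efnb2 0.11 ± 0.071 and Cbln4, a secreted neurexin ligand, -0.23 ± 0.15.

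Shares of subunits within families were compared through 3 ratios, the last of them that of Nlgn2 to Nlgn1 above, and none passed. The ratio of Camk2a to Camk2b counts, which bears on the makeup of the kinase, was 3.63, 3.52, 3.40 and 3.67 in BPA mice and 3.91, 3.41, 3.86 and 3.62 in Control mice (log2 difference -0.054; exact permutation p = 0.371, adjusted 0.557). The ratio of Dlg4 to Dlg1 counts averaged 6.18 ± 0.404 in BPA mice and 6.06 ± 0.499 in Control mice (exact permutation p = 0.686, adjusted 0.686). Per kb, Camk2a made up 78.0 ± 0.625% of the CaMKII genes in BPA mice and 78.5 ± 1.06% in Control mice. Among the SAPAP genes, Dlgap1 made up 33.7 ± 0.990% in BPA mice and 34.0 ± 1.98% in Control mice. Homer3 made up 22.4 ± 1.35% of the Homer genes in BPA mice and 19.8 ± 1.31% in Control mice; these shares were not tested.

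Control mice had the larger spread in most of these genes. The SD of log2 CPM was larger in the Control group for 36 of the 46 members (78.3%), against 59.9% of all tested genes. The median coefficient of variation of a member was 4.45% in BPA mice and 6.42% in Control mice; over tested genes at 10 CPM or more it was 4.8% in BPA mice and 5.69% in Control mice. BPA replicates 1 and 2 were the lowest library for 0 members, against 8.84% and 10.7% of all tested genes. Control replicate 2 was the lowest library for 19 members (41.3%), against 13.5% of all tested genes, and Control replicates 3 and 4 were the highest for 11 members each (23.9%), against 12.1% and 17.6% of all tested genes. These counts describe the 8 libraries and were not tested. The part of the choroid plexus RNA in the low values of Control replicate 2 was not tested.

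**Figure D4:**
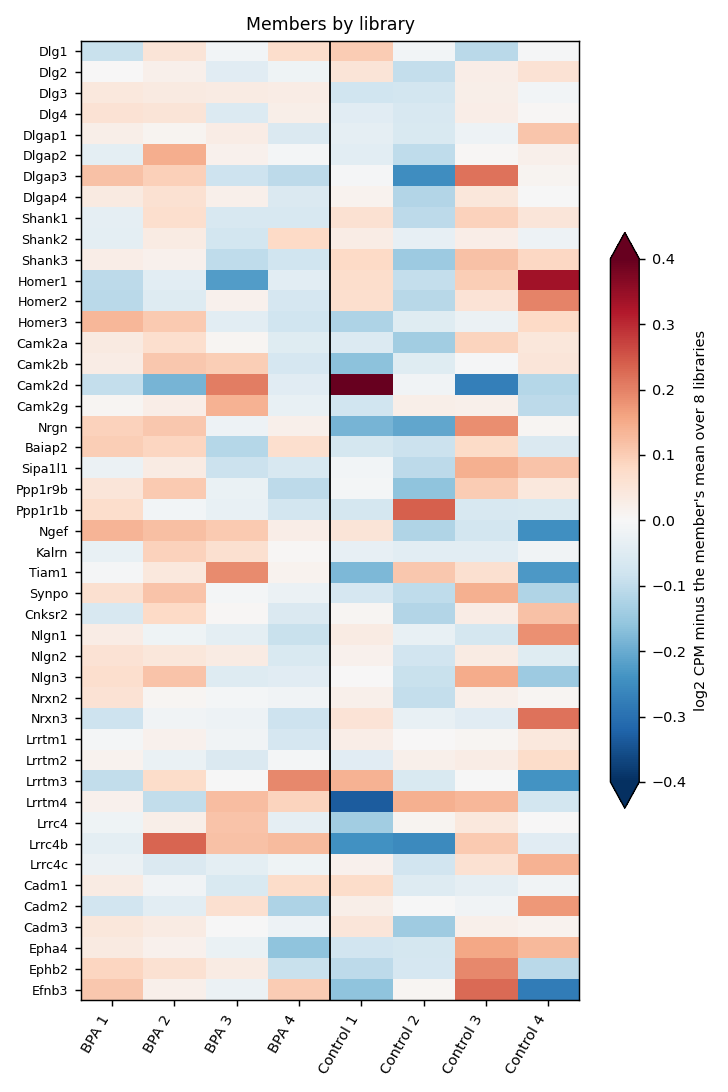
Log2 CPM of each member in each library minus the mean of that member over the 8 libraries; red is above and blue below that mean, and the black line separates BPA from Control libraries. Control replicate 2 is the lowest library for 19 members, and the largest single departure is Camk2d in Control replicate 1, at 58.5 CPM.

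Several members varied between Control libraries along with the summed markers of the dentate gyrus and CA1. Dentate granule cell markers, of which 6 of 6 had estimates above 0 and 0 were called, summed to 468 to 508 CPM in BPA libraries. In the Control group the sum was 362 and 384 CPM in replicates 1 and 4, and 490.3 and 511 CPM in replicates 2 and 3. CA1 pyramidal cell markers, of which 0 of 5 had estimates above 0, summed to 369 to 411 CPM in BPA libraries, to 456 and 458 CPM in Control replicates 1 and 4 and to 357 and 377 CPM in Control replicates 2 and 3. Not every single marker followed this split of the Control replicates. In Control replicates 1 to 4, Calb1 of the dentate list was at 126, 131, 135 and 133 CPM. Fibcd1 of the CA1 list was at 72.7, 65.1, 75.1 and 80.2 CPM. CA3 pyramidal cell markers, of which 0 of 5 had estimates above 0 and 0 were called, did not follow this split. They summed to 64.5 to 78.2 CPM in BPA libraries, and in the Control group to 76.3 and 90.2 CPM in replicates 1 and 4 and 79.3 and 75.3 CPM in replicates 2 and 3. Control replicates 1 and 4 were the lowest pair of libraries for Tiam1, Efnb3, Ephb2 and Camk2g (8.70% of members, against 4.83% of all tested genes). They were the highest pair for Homer2, Nrxn3, Nlgn1, Dlg2 and Lrrtm1 (10.9% of members, against 4.36% of all tested genes). Efnb3 was at 126, 118, 115 and 125 CPM in BPA mice, against 104, 117, 136 and 96.1 CPM in Control mice. Lrrtm4, which is enriched in dentate granule cells, was at 58.9, 54.4, 63.4 and 61.9 CPM in BPA mice, against 46.3, 64.3, 63.8 and 55.3 CPM in Control mice. Without Control replicates 1 and 4, Tiam1 was at -0.024, Efnb3 at -0.068 and Lrrtm4 at -0.10, each opposite in sign to its value with all libraries. This pair held the lowest Control values of each of these members, so leaving it out had to lower their estimates. The changes of sign therefore do not test a link to the markers. Without the pair, Ngef was the only member with an unadjusted p under 0.05. Single libraries moved Efnb3 as well: it was at 0.19 without Control replicate 3 (unadjusted p 0.013) and 0.020 without Control replicate 4. The part of the dentate and CA1 share of the tissue in these values was not tested.

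**Figure D5:**
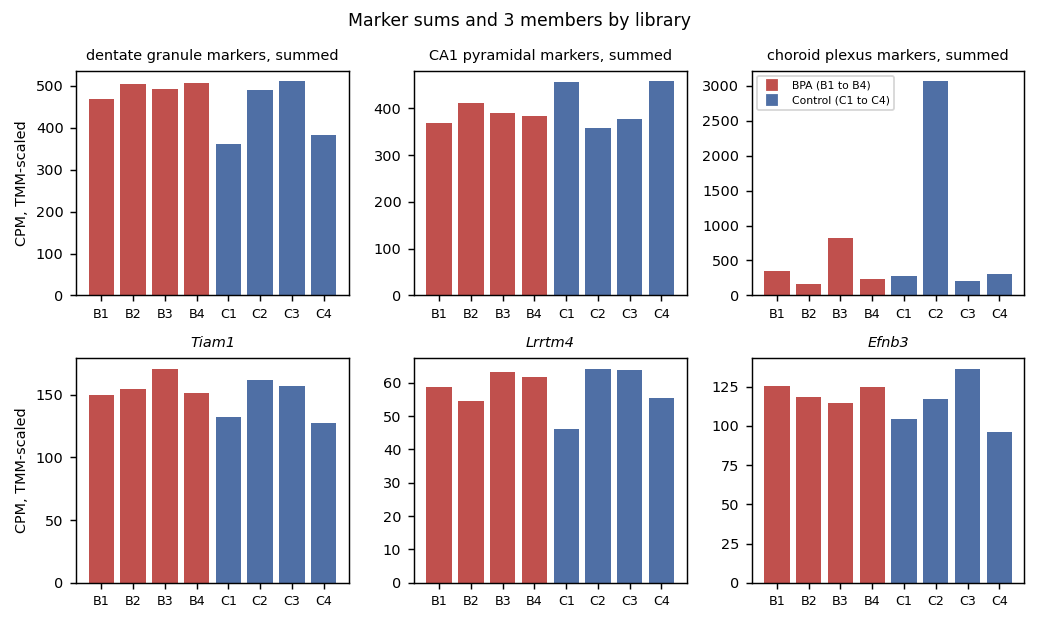
Summed TMM-scaled CPM of dentate granule, CA1 pyramidal and choroid plexus markers (top) and CPM of Tiam1, Lrrtm4 and Efnb3 (bottom) in each library, with red bars for BPA replicates (B1 to B4) and blue bars for Control replicates (C1 to C4). Dentate sums were lowest in Control replicates 1 and 4, at 362 and 384 CPM, and the choroid plexus sum reached 3061 CPM in Control replicate 2. The members drawn were lower in Control replicates 1 and 4 than in the other Control replicates. Members highest in that pair, such as Homer2 and Nrxn3, are not drawn.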

How the data were processed

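The authors deposited integer read counts, unnormalized, for each gene symbol. The submitters' processing notes name mm10, featureCounts 1.5.0, STAR 2.3.0e, Trimmomatic 0.32 and DESeq2; per the file headers, genes follow refGene. Polyadenylated RNA went into stranded libraries per the labels' protocols. No source used here states whether counting used strand, so 8 members with exons opposite another counted gene are uncertain: Homer3, Lrrtm2, Nrxn2, Ppp1r1b, Shank1, Cadm2, Ngef and Dlgap4. Cadm3 shares exon bases with Ackr1 on its own strand. Replicates were no duplicates: their counts differed by 10.2 to 25.0 times sampling noise (chi-square per degree of freedom).

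Columns were matched to samples by the library code in the title. Genes were filtered with filterByExpr, scaled by TMM and tested with edgeR 4.0.16 in R 4.3.3 (quasi-likelihood, group term only, two-sided, Benjamini-Hochberg over 15434 genes, threshold 0.05), after a check on simulated counts. Each standard error is the log2 fold change over the root of its F statistic. Alternatives used DESeq2 1.42.0, limma 3.58.1 and other settings. Exon lengths, GC content and overlaps came from GENCODE M21 of the same build. The 12 members with the smallest p and the most abundant of each role are given by library; partner genes are the 4 with the smallest p in each of 3 groups. Others, such as Efnb3 and Lrrtm4, were chosen after their values were seen. Members and lists were chosen with earlier results of these data known.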

Additional observations from a re-analysis of the deposited data

Results flagged for a closer look

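Of 92 groups of 4 libraries checked (46 members in 2 groups), 6 held a library far from the other 3, where chance flags about 1 in 20. BPA replicate 3 was low for Baiap2, at 168 CPM with the others at 191 to 195 CPM. Control replicate 2 was low for Shank3 (206 CPM, the others 241 to 248) and Nrxn2 (205 CPM, the others 220.0 to 222) and high for Ppp1r1b (21.2 CPM, the others 17.1 to 17.2). Control replicate 3 was high for Baiap2 (192 CPM, the others 172 to 175) and Ephb2 (36.6 CPM, the others 29.7 to 30.6).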

How the results depend on the processing

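No member or partner gene was called under any of the 19 alternatives, and DESeq2 alone called genes elsewhere in the table (7, against 0 with edgeR). Members with an unadjusted p under 0.05 numbered 3, but 1 with library total as a covariate, 5 without Control replicate 2 and BPA replicate 3, and 2 to 8 on leaving out 1 library (8 without Control replicate 2, 17.4% against 4.36% of all tested genes, and 7 without Control replicate 3, 15.2% against 7.52%). Without Control replicates 1 and 4, a setting chosen after seeing the data, there was 1. Members whose groups did not overlap numbered 1, and 2 to 6 on leaving out 1 library (6 without Control replicate 2, 13.0% against 5.77% of all tested genes, and 2 or 3 without any other library, 4.35 to 6.52% against 3.75 to 7.7%). The members' median log2 fold change ran from -0.0012 to 0.049 on leaving out 1 library.

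Replicate numbers did not pair the libraries: deviations of same-numbered libraries correlated at -0.37 to 0.070, and 0 of 8 matched best with their own number. With the replicate number as a block, 0 members were called, 3 had an unadjusted p under 0.05 and the median was 0.027 (0.011 with a GC offset).

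A change of sign was counted where the value also moved by over 1 SE of the fit on group alone. With library total as a covariate this held for Dlg1 (-0.084), Sipa1l1 (0.0020), Nlgn1 (0.0090), Nlgn3 (-0.041), Lrrtm2 (0.023), Lrrtm3 (-0.11), Lrrc4c (0.029) and Epha4 (0.055). Without Control replicates 1 and 4 it held for Camk2d (0.11), Tiam1 (-0.024), Nlgn1 (0.023), Lrrtm4 (-0.10), Ephb2 (-0.041) and Efnb3 (-0.068), and without Control replicate 2 and BPA replicate 3 for Ppp1r1b (0.060). On leaving out 1 library, Camk2d ran from -0.19 to 0.11, Ppp1r1b from -0.059 to 0.056 and Lrrtm4 from -0.038 to 0.12; the positive end of Camk2d and the negative end of Lrrtm4 came without Control replicate 1, and the positive end of Ppp1r1b without Control replicate 2. The cause of these changes was not tested. Each member had at least 452 reads in every library, and the median SE of a member's log2 fold change was 0.056.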

Other observations

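Members rich in GC had higher estimates than the rest. Of the 23 members with a GC content above the members' median of 53.0%, 19 had a log2 fold change above 0 (median 0.037), and of the other 23, 11 did (median -0.019). GC content was taken over annotated transcripts, and this split was made after the values were seen. It was made among the members only, so it does not show whether other genes differ by GC content in the same way.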
